A study of Mus musculus with 31 samples.

Results

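The genes described here are germ cell genes: a list of 36 mouse genes of the piRNA pathway, of meiosis and of germ cell regulation, followed over all 31 libraries of a study of fibroblast reprogramming. The members were taken by gene symbol, and 35 of the 36 were found among the 29267 genes of the tables (28756 of which have a GENCODE M21 symbol). Rpl10l matched no row and was not analysed here. Germline genes of this kind are known for promoters rich in CpG dinucleotides that are methylated in somatic cells, and many of them come on in cells that lack DNA methyltransferases or the repressor complexes of E2F6 and MGA. The piRNA pathway makes small RNAs that guide PIWI proteins to transposons in the germ line, and the synaptonemal complex, meiotic cohesin and the recombination factors hold and exchange homologous chromosomes in meiosis. TET enzymes oxidise methylated cytosine, and vitamin C is a cofactor of these enzymes. DNA methylation itself was not measured in these libraries, so the values below are RNA levels only.

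All libraries are labelled strain 129/OG2. The untreated fibroblasts (MEF, passage 2, day 0) and the embryonic stem cells (ESC, passages 17 and 19) have 2 libraries each. The ESC libraries are named here by their sample titles, 0819 (passage 19) and 0822 (passage 17); in the names of the deposited tables the numbers are swapped between them, and which of the libraries has which number and passage is in doubt. In the other cells reprogramming was induced with OKSM, the factors Oct4, Klf4, Sox2 and Myc, and all of these carry a second virus, either Flag, taken here as the control, or Tet1CD. Each kind was kept with DMSO, with vitamin C (Vc) or with DKG, an abbreviation the labels do not spell out, and was sampled at day 3 and day 8 (passage 0, 2 libraries in each of the 12 groups). The replicates are numbered 0824 and 0826, and nothing in the labels says whether they came from different cultures. The p-values therefore speak only of how far these libraries lie from each other, and that spread may be technical. There were also 3 single MEF libraries of day 3, labelled DMSO, Vc and DKG. The title of the last names another agent than its treatment label, so its treatment is uncertain. These 3 libraries were described and not tested.

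Library totals ran from 3953297 to 6818060 counts, so 1 CPM (counts scaled to 1000000 per library) is about 4 to 7 counts and the lowest values below are limited by counting. Tet1, measured as a check of the Tet1CD label, stood at 183 to 686 CPM in the 12 Tet1CD libraries and at 4.37 to 32.5 CPM in the 12 Flag libraries. In Tet1CD cells it was not higher with Vc than with DMSO. It was 429 and 472 CPM with Vc against 672 and 561 CPM with DMSO at day 3, and 183 and 251 against 327 and 604 CPM at day 8. In Flag cells of day 8 it was 32.5 and 5.89 CPM with Vc against 9.25 and 4.37 CPM with DMSO. The part of the Tet1 level in the values below was not tested. The ESC libraries stand apart from each other. The 6 fibroblast markers (Col1a1, Col1a2, Col3a1, Thy1, Postn and Pdgfra) summed to 66.0 CPM in ESC 0819 and to 9108 CPM in ESC 0822, against 28110 to 30210 CPM in MEF, while the 7 pluripotent cell markers (Nanog, Zfp42, Dppa5a, Esrrb, Fbxo15, Lin28a and Tdgf1) were all at 1 CPM or more in both, summing to 2400 to 3461 CPM. Values that rest on ESC are therefore given for each library, and the part of fibroblast RNA in them was not tested. In bulk RNA, fewer cells that express a gene and less of its RNA per cell cannot be told apart.

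Most members were near 0 in fibroblasts, stayed there in most reprogramming cells, and were present in ESC. Counting a member as detected where every library of a group held at least 1 CPM, 4 of 35 were detected in MEF, namely Sycp1, Stag3, Tex15 and Brdt, and 24 of 35 in ESC. In the Flag groups 4 or 5 were detected at day 3 and 6 at day 8, whatever the medium, and each of the 3 single MEF libraries held 5 at this level. In Tet1CD cells the number was 6 with DMSO, 5 with DKG and 9 with Vc at day 3, and 6, 7 and 12 at day 8. The 35 members summed to 45.8 and 79.8 CPM in the Tet1CD Vc libraries of day 3 and 86.9 to 100.7 CPM in those of day 8, against 12.8 to 17.6 and 30.2 to 37.0 CPM in the Flag Vc libraries, 11.6 to 15.0 CPM in MEF and 342 to 482 CPM in ESC. With a cut of 0.5 CPM in place of 1 CPM, 18 members were detected in Tet1CD Vc cells of day 8 and 7 in Flag Vc cells of that day, and with a cut of 2 CPM the numbers were 9 and 6.

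**Figure D1:**
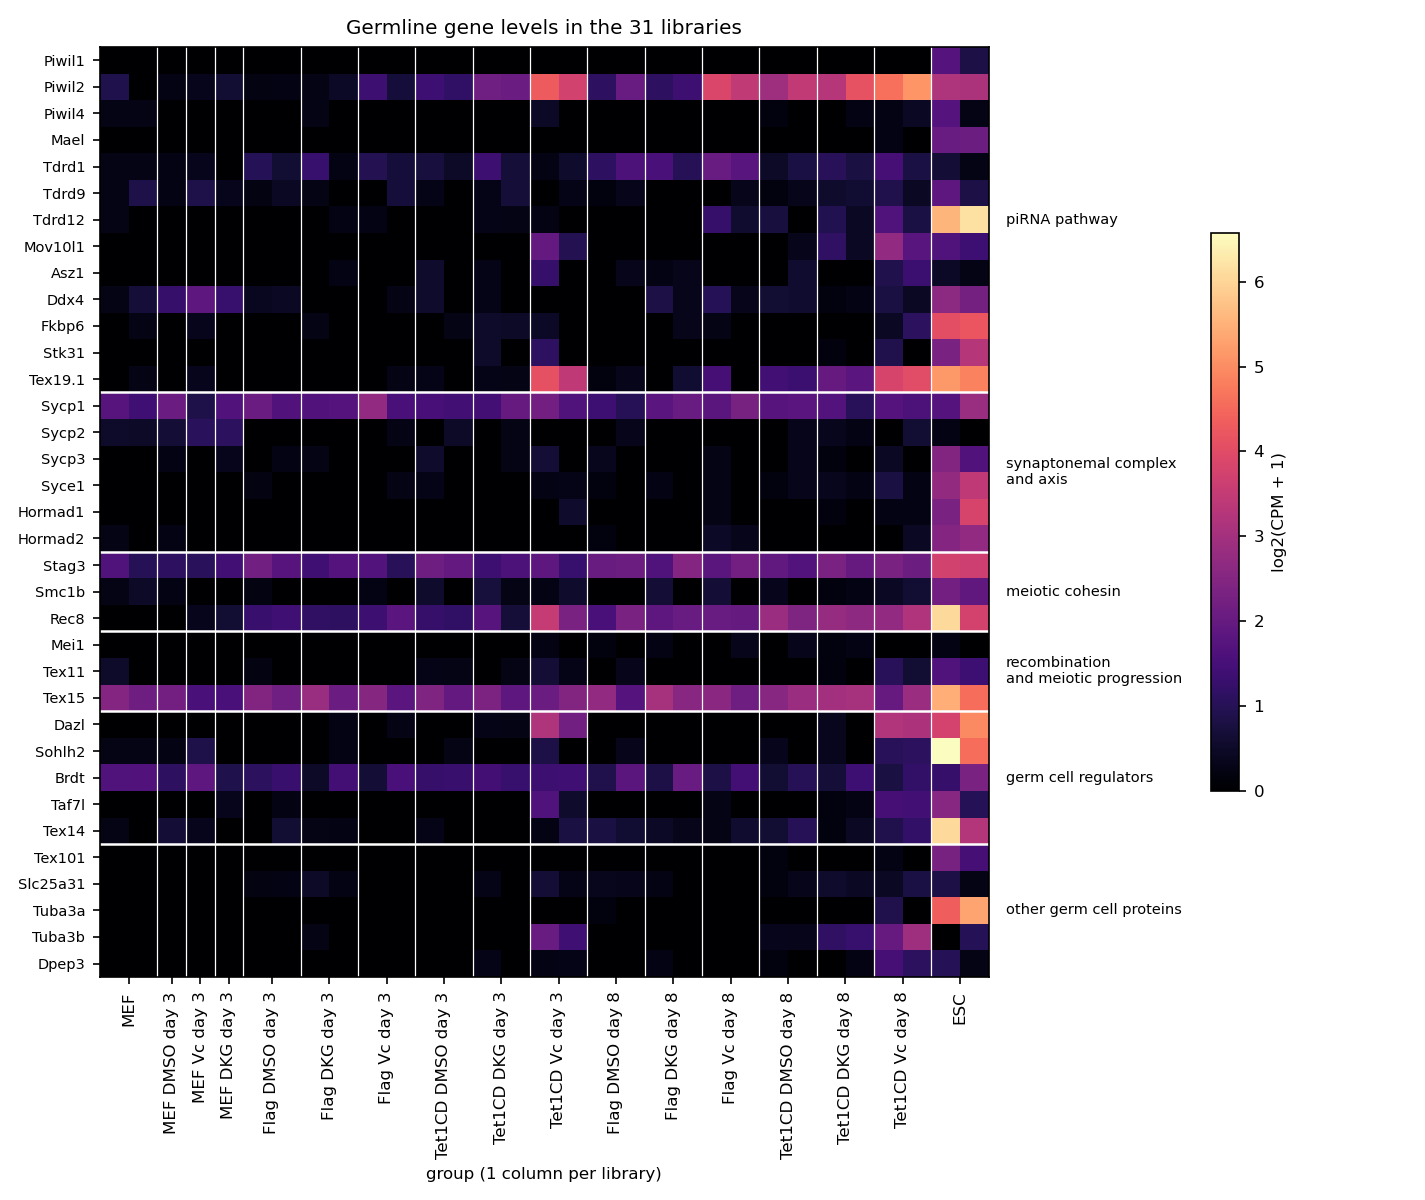
Levels of the 35 germline genes (rows, grouped by role) in the 31 libraries (columns, grouped by sample group) as log2(CPM + 1), black at 0 and pale at the highest level. ESC has 24 genes at 1 CPM or more in both columns and MEF has 4, and the Tet1CD Vc columns of both days stand out for Piwil2, Tex19.1 and Dazl.

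A group with 0 counts in 2 libraries allows a level of up to 0.246 to 0.333 CPM (3 counts over the group, counting error only). In MEF 17 members had 0 counts, in Tet1CD Vc cells of day 8 only Piwil1 and Mei1 did, and in ESC none. 15 members stayed under 1 CPM in all 24 reprogramming libraries: Piwil1, Piwil4, Mael, Tdrd9 and Ddx4 of the piRNA pathway, Sycp2, Sycp3, Syce1, Hormad1 and Hormad2 of the synaptonemal complex and axis, the cohesin subunit Smc1b, and Mei1, Tex101, Slc25a31 and Tuba3a. A filter on low counts left 25 of the 35 members in the test across all 14914 genes. Piwil1, Piwil4, Tdrd9, Asz1, Sycp2, Mei1, Tex11, Tex101, Slc25a31 and Dpep3 did not pass it.

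The members that changed among reprogramming cells were few, and they are shown first by their promoters, where DNA methylation is known to act in this class of genes. RefSeq promoters (assembly GRCm38.p6, 250 bases before to 50 after a start, gene strand) matched 32 of the 35 measured members; Piwil2, Tex11 and Tex15 had no entry. Printed are those of 5 genes that were higher in Tet1CD Vc cells than in Flag Vc cells at day 3 in a test that pairs libraries by replicate number within a day, and those of Tdrd9 and Sycp2, which stayed under 1 CPM in all reprogramming libraries. Capitals mark each CpG.
Tex19.1 (chr11:121145893-121146192, plus strand): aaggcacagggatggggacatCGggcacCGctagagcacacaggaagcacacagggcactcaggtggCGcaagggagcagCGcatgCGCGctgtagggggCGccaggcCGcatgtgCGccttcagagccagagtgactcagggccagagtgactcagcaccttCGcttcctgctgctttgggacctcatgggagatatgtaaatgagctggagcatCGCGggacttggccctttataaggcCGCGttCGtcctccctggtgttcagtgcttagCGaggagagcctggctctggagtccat
Dazl (chr17:50293571-50293870, minus strand): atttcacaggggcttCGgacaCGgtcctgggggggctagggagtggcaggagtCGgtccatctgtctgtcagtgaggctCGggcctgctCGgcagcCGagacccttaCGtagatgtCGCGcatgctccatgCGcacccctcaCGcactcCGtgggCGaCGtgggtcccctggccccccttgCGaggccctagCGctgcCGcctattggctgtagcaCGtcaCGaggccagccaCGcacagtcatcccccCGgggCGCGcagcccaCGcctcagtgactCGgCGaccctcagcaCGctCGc
Mov10l1 (chr15:88982744-88983043, plus strand): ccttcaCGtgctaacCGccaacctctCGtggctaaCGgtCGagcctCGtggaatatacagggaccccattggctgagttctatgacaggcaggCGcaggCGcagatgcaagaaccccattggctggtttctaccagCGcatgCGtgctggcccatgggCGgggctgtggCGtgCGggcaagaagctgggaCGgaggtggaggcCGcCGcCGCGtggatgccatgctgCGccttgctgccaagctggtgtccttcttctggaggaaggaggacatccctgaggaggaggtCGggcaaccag
Tuba3b (chr6:145615713-145616012, plus strand): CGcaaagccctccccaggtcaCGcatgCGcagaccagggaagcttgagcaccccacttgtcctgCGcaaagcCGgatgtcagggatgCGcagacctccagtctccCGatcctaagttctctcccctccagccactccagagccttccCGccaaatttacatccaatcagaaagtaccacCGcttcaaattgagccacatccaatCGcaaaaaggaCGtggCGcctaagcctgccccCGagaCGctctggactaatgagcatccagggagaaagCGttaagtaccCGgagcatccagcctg
Rec8 (chr14:55617916-55618215, plus strand): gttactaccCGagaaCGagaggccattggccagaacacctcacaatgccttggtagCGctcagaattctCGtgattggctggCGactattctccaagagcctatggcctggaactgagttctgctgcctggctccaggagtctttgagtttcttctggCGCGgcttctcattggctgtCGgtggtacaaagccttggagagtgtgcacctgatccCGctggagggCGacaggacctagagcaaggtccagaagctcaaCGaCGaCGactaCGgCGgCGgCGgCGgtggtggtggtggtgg
Tdrd9 (chr12:111971309-111971608, plus strand): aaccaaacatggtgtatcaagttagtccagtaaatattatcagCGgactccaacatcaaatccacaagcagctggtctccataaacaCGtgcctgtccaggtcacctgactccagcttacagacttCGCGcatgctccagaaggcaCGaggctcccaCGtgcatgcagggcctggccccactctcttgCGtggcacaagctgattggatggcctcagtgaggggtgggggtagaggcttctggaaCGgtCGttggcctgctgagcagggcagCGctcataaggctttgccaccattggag
Sycp2 (chr2:178407609-178407908, minus strand): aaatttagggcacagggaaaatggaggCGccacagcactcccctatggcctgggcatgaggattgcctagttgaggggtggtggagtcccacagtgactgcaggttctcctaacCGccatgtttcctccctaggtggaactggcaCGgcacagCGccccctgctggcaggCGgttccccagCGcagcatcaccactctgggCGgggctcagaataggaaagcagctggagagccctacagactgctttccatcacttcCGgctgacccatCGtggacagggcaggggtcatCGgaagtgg

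These 7 windows hold 16 CpGs in Tex19.1, 28 in Dazl, 20 in Mov10l1, 16 in Tuba3b, 18 in Rec8 and 10 each in Tdrd9 and Sycp2. Over the 32 members the count ran from 8 (Mei1) to 38 (Ddx4) with a median of 18, against a median of 7 in all 32851 RefSeq promoters, and the ratio of observed to expected CpGs had a median of 0.693 against 0.384. The 15 members that stayed under 1 CPM in reprogramming cells had a median of 16 CpGs, and their range was that of the whole list. Tdrd9 and Sycp2 are the lowest of the 15 after Mei1, so the printed windows do not stand for these members. Ddx4, Smc1b with 29, Mael with 24 and Hormad1 with 24 were among the richest in CpG and stayed under 1 CPM. Mei1, Piwil1 and Tex101 have their RefSeq window 12480, 33722 and 4625 bases from the GENCODE start, so it may not be the promoter used, and Mei1, lowest in CpG, is not printed for that reason.

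**Figure D2:**
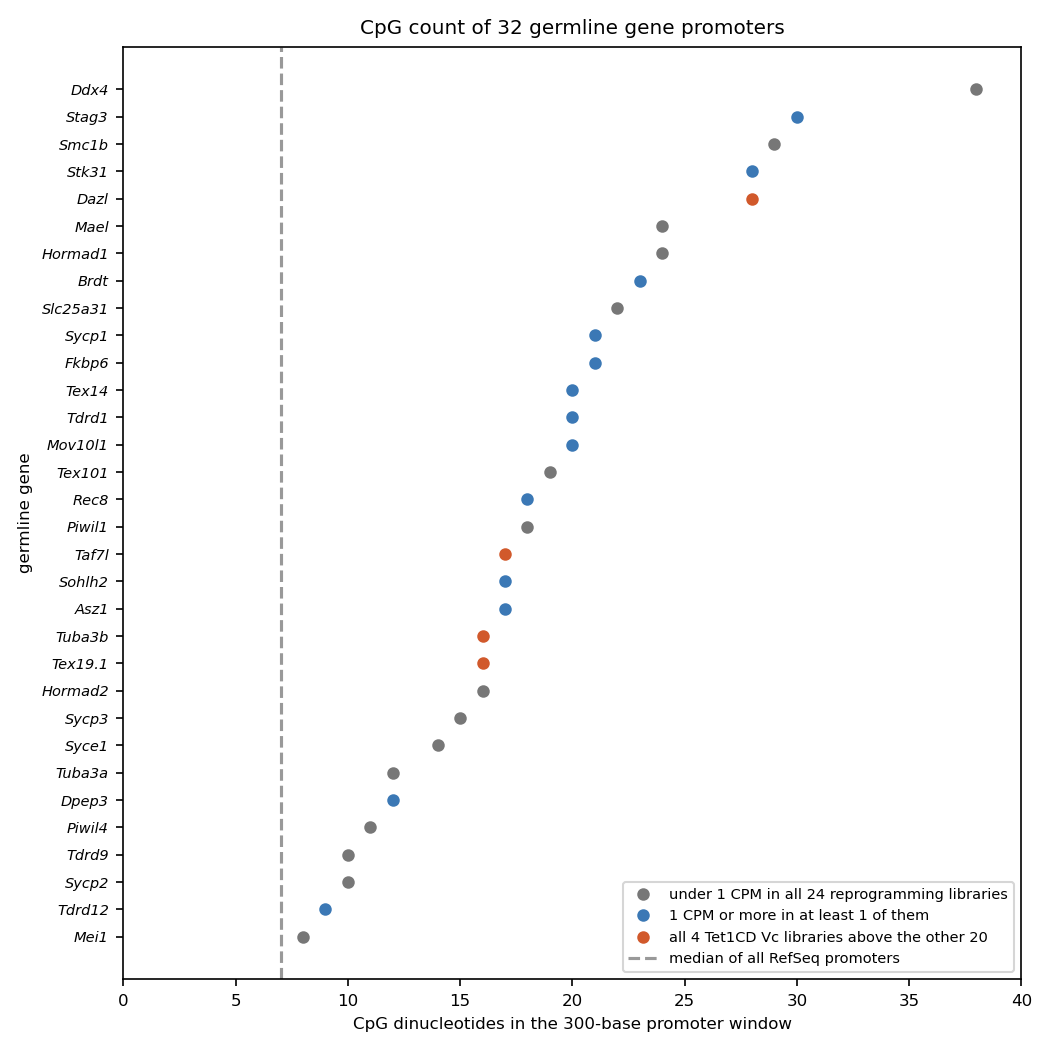
CpG dinucleotides in the 300-base promoter window of 32 germline genes, sorted by count and coloured by their level in the 24 reprogramming libraries; the dashed line is the median of all RefSeq promoters, 7. Genes under 1 CPM (grey) span 8 to 38 CpGs and the 4 genes set apart in Tet1CD Vc cells (orange) span 16 to 28.

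A pair of short motifs known from repressors of germline genes was counted on both strands. The E-box CACGTG, which MAX and MGA bind, was in 15 of the 32 members (46.88%) and in 7.15% of all promoters. TCCCGC, the core of the E2F6 site, was in 13 of 32 (40.62%) and in 19.98% of all promoters. Both motifs contain a CpG, and the members hold a median of 18 CpGs against 7 in all promoters. The shares were not compared at equal CpG content, so they do not show an excess of these motifs as such. Sites of these motifs can share 1 base, and CACGTG reads the same on both strands. Of the 7 windows printed, Mov10l1 holds CACGTG once and Tdrd9 2 times, and Tex19.1, Tuba3b and Rec8 hold TCCCGC once each. A match is a description of the letters in the window and not of a bound site.

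Among the 13 piRNA pathway members, Piwil2, the PIWI protein of early male germ cells, changed in the most comparisons. At day 3 it stood at 18.6 and 12.4 CPM in Tet1CD Vc cells, at 1.53 and 0.629 in Flag Vc cells, at 1.61 and 1.25 in Tet1CD DMSO cells and at 3.51 and 3.27 in Tet1CD DKG cells, with 0.164 to 0.389 CPM in the 4 other Flag libraries. At day 8 it stood at 23.6 and 34.0 CPM in Tet1CD Vc cells, 13.5 and 10.1 in Flag Vc cells, 6.58 and 10.1 in Tet1CD DMSO cells, 8.70 and 16.7 in Tet1CD DKG cells, and 1.16 to 3.09 CPM in Flag cells with DMSO or DKG. The Tet1CD Vc libraries were the highest of each day, with no overlap, and by day 8 Vc alone and Tet1CD alone each went with levels above those of Flag DMSO cells. Piwil2 rose with Tet1CD in Vc at day 3 (log2 fold change 3.80 ± 0.62 SE, edgeR adjusted p = 0.00443) and with Vc in Tet1CD cells at day 3 (3.43 ± 0.61, adjusted p = 0.0123). In Flag cells with Vc it rose from day 3 to day 8 (3.41 ± 0.62, adjusted p = 0.0131).

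Replicate numbers paired the libraries within a day, so the same test was also run with the replicate number within each day as a block (within-day block, 24 libraries, 14015 genes, 11 of the members). With it Piwil2 also rose with Tet1CD in Vc at day 8 (1.23 ± 0.26, adjusted p = 0.00527), in DKG at day 3 (3.40 ± 0.63, 0.0151) and in DMSO and DKG at day 8 (2.08 ± 0.37, 0.00315, and 3.17 ± 0.39, 0.000108). It rose with Vc in Flag cells at day 8 (2.65 ± 0.36, adjusted p = 0.000517) and in Tet1CD cells at day 8 (1.81 ± 0.27, 0.000439), and from day 3 to day 8 in Tet1CD Vc cells (0.90 ± 0.26, 0.0194). Without the block these 7 differences had edgeR adjusted p-values from 0.0872 to 1.

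Tex19.1, a germ cell and placental protein that holds down transposons, was close to an on and off pattern at day 3. It stood at 16.1 and 9.74 CPM in Tet1CD Vc cells of day 3, and the 10 other reprogramming libraries of that day held at most 0.229 CPM. At day 8 it stood at 13.2 and 15.2 CPM in Tet1CD Vc cells, 1.68 and 1.51 in Tet1CD DMSO cells, 3.05 and 2.48 in Tet1CD DKG cells, 1.76 and 0 in Flag Vc cells, and at most 0.519 CPM in Flag cells with DMSO or DKG. The 4 Tet1CD Vc libraries were above all 20 others. At day 3 it rose with Tet1CD in Vc (log2 fold change 6.70 ± 1.10, edgeR adjusted p = 0.00592) and with Vc in Tet1CD cells (6.60 ± 1.10, 0.0102). By counts the ratio was 133 to Flag Vc cells (95% counting interval 23.4 to 5280) and 121 to Tet1CD DMSO cells (21.4 to 4840), 124 counts against 1 in both. At day 8 the differences of 3.89 ± 0.83 and 3.12 ± 0.77 had adjusted p = 0.0767 and 0.18, and with the within-day block both were called (3.89 ± 0.62, 0.000665, and 3.15 ± 0.55, 0.00246). Of the 50-base stretches of its transcripts, 2.67% are shared with its paralog Tex19.2, which stood at 0.992 CPM or less in every library.

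Mov10l1, the RNA helicase that feeds piRNA precursors to the pathway, had 0 counts in all MEF, all Flag and all Tet1CD libraries of day 3 without Vc. It stood at 2.91 and 0.950 CPM in Tet1CD Vc cells of day 3 and at 5.51 and 2.42 CPM in those of day 8. In Tet1CD cells of day 8 it was 0 and 0.252 CPM with DMSO and 1.22 and 0.355 CPM with DKG. Every Tet1CD Vc library of a day was above the Flag libraries, while the lower one of day 3 was under the higher DKG library of day 8. The level was at least 6.77-fold higher than in Flag Vc cells at day 3 and at least 12.2-fold higher at day 8. The within-day block called both (log2 fold change 6.35 ± 1.57, adjusted p = 0.0197, and 7.41 ± 1.41, 0.00736) and also Vc against DMSO in Tet1CD cells at day 8 (5.21 ± 1.03, 0.0138), and the test with no block called none of them (adjusted p = 0.295, 0.169 and 0.296).

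**Figure D3:**
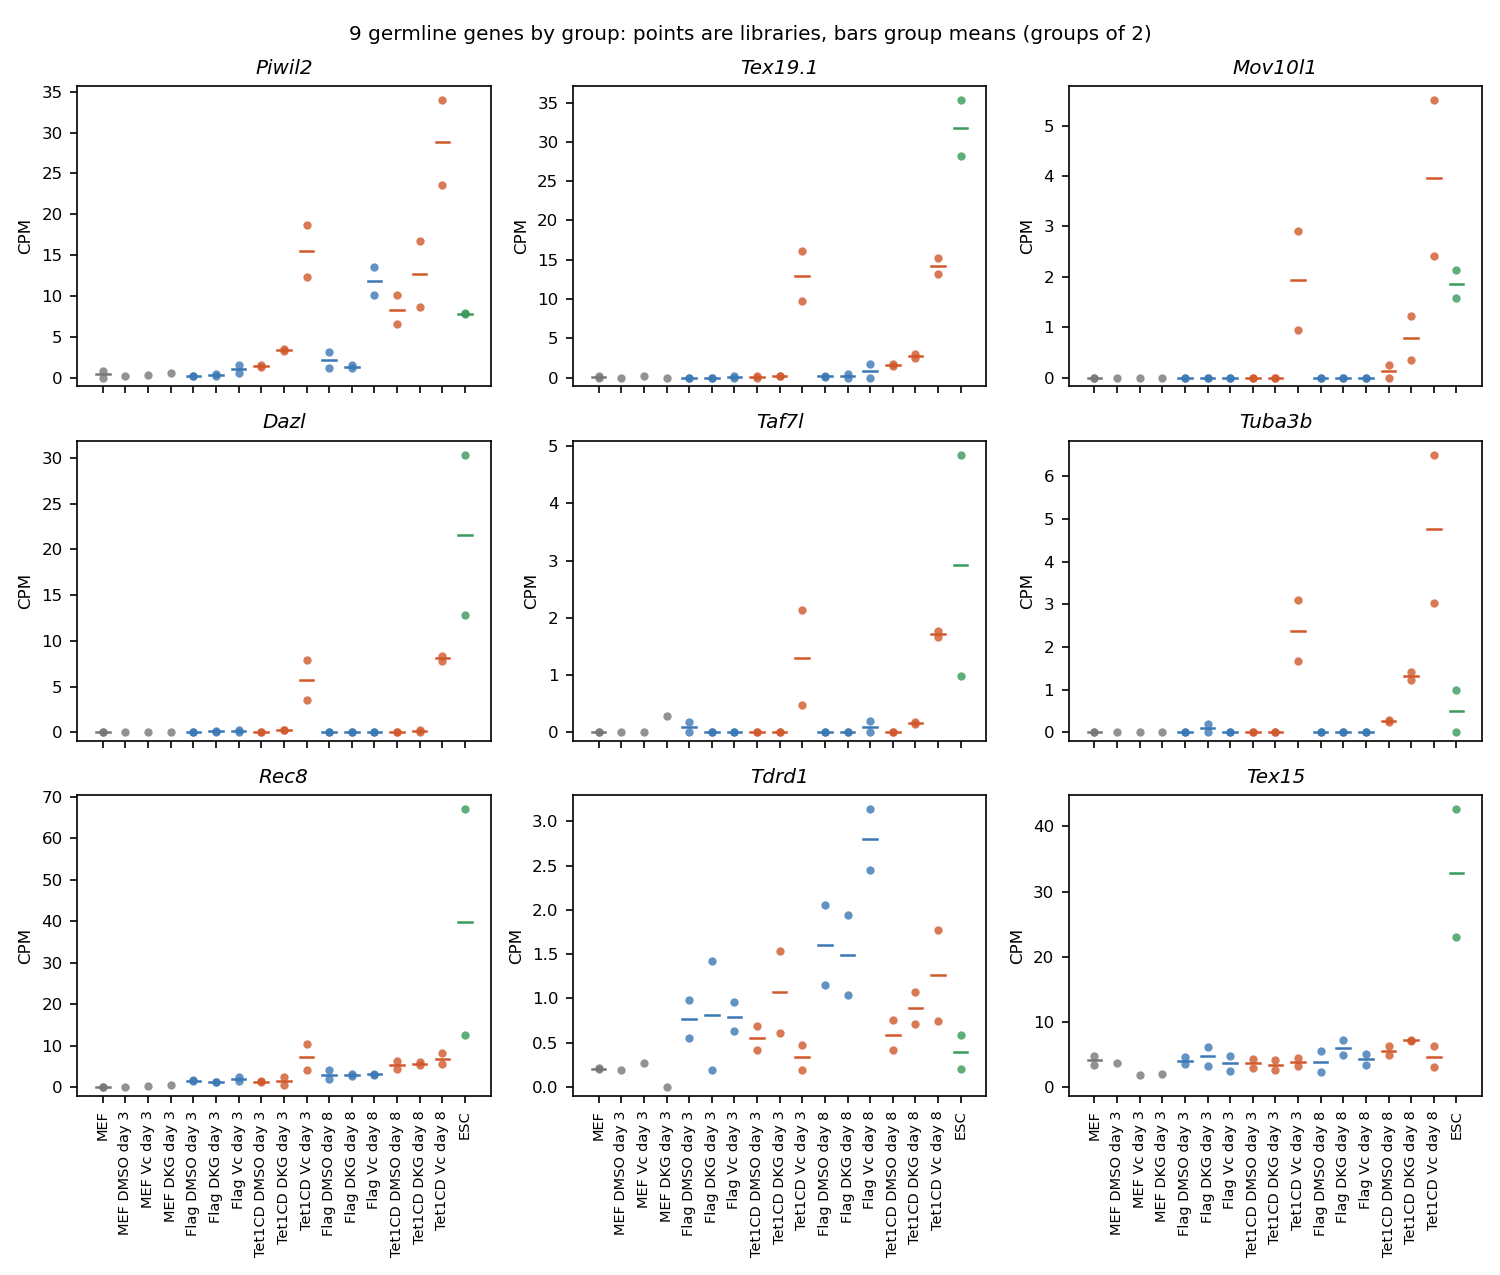
CPM of 9 germline genes in each library (points) of the 17 groups, with the mean of groups of 2 as a bar; grey is MEF, blue Flag, orange Tet1CD and green ESC, and each panel has its own CPM axis. In Piwil2, Tex19.1, Mov10l1, Dazl, Taf7l and Tuba3b the Tet1CD Vc points are the highest reprogramming points of each day, and Tdrd1 is highest in Flag Vc cells of day 8.

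The rest of the pathway moved little. Tdrd1, a tudor-domain scaffold of piRNA granules, followed another order and was highest in Flag Vc cells of day 8, at 3.14 and 2.45 CPM, against 0.955 and 0.629 CPM at day 3 and 1.78 and 0.743 CPM in Tet1CD Vc cells of day 8. It rose from day 3 to day 8 in Flag Vc cells only with the within-day block (1.86 ± 0.63, adjusted p = 0.0328, against 0.262 without it). Tdrd12 reached 2.13 and 0.743 CPM in Tet1CD Vc cells of day 8 and 1.37 and 0.491 in Flag Vc cells of that day, with at most 0.220 CPM at day 3, while ESC held 46.0 and 71.6 CPM. Asz1, a scaffold of germ cell mitochondria, stood at 1.36 and 0 CPM in Tet1CD Vc cells of day 3 and at 0.889 and 1.49 CPM in those of day 8. That is 13 counts against 0 in Flag Vc cells of day 8 (at least 3.61-fold) and 13 against 2 in Tet1CD DMSO cells (ratio 6.56, 1.49 to 59.9). Stk31 and Fkbp6 reached 1 CPM in 1 library each, and Piwil1, Piwil4, Mael, Tdrd9 and Ddx4 in none. Ddx4, the germ cell helicase also called Vasa, was higher in the 3 single MEF libraries of day 3, at 1.35, 2.70 and 1.40 CPM, than in any reprogramming library, where 0.980 CPM was the highest.

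Of the synaptonemal complex and axis members, 5 of 6 stayed under 1 CPM in every reprogramming library. The exception, Sycp1, the transverse filament protein, was between 0.809 and 5.54 CPM in every library outside ESC, with 2.36 and 1.62 CPM in MEF and 2.31 and 2.04 CPM in Tet1CD Vc cells of day 8. It was called in none of the 19 comparisons. The HORMA proteins Hormad1 and Hormad2, which mark unsynapsed axes, were at 0.475 CPM or less in all reprogramming libraries. In ESC they stood at 4.08 and 13.1 CPM and at 4.66 and 5.55 CPM. Sycp3 shares 42.96% of its 50-base stretches with Chpt1 on the other strand, and its counts are uncertain because the strand setting of the counting is not given in the sources used here.

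The meiotic cohesin members behaved differently from one another. Rec8, the meiotic kleisin, had 0 counts in MEF, 1.48 and 1.66 CPM in Flag DMSO cells of day 3, 10.5 and 4.04 CPM in Tet1CD Vc cells of day 3, and 5.51 and 8.18 CPM in those of day 8. In the other reprogramming groups it ran from 0.612 to 2.52 CPM at day 3 and from 1.88 to 6.30 CPM at day 8, so the groups of day 8 overlapped. It was the only member called between Flag DMSO cells of day 3 and MEF (log2 fold change 6.02 ± 1.59, edgeR adjusted p = 0.00968, 18 counts against 0, at least 4.99-fold), where 28.7% of all genes tested were called. Leaving out either MEF library ended that call. With the within-day block Rec8 also rose at day 3 with Tet1CD in Vc (1.81 ± 0.48, adjusted p = 0.0146) and with Vc in Tet1CD cells (2.42 ± 0.52, 0.0115); without it the adjusted p-values were 0.504 and 0.639. Stag3, the meiotic SA subunit, was between 1.01 and 4.67 CPM in every library outside ESC, and Smc1b was at 0.659 CPM or less in reprogramming cells.

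Of the recombination members, Tex15, which acts in meiotic repair and in the silencing of transposons, was present throughout, between 1.89 and 7.27 CPM outside ESC, and was called in no comparison between reprogramming groups. Tex11 reached 1.07 and 0.558 CPM in Tet1CD Vc cells of day 8 and at most 0.582 CPM in other reprogramming libraries. Mei1 had at most 0.252 CPM.

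Dazl, the RNA-binding protein that licenses germ cells for meiosis, gave the clearest separation among the regulators. It stood at 7.96 and 3.56 CPM in Tet1CD Vc cells of day 3 and at 8.35 and 7.81 CPM in those of day 8. In the 20 other reprogramming libraries it held at most 0.305 CPM, and 15 of these had 0 counts, as did all 5 MEF libraries. At day 8 it rose with Tet1CD in Vc (log2 fold change 8.37 ± 1.42, edgeR adjusted p = 0.0465, 89 counts against 0, at least 24.7-fold) and with Vc in Tet1CD cells (8.37 ± 1.37, 0.0465, 89 against 0, at least 29.9-fold). At day 3 the same differences were 5.54 ± 1.11 (adjusted p = 0.0681, 56 counts against 1) and 7.89 ± 1.44 (0.0669, 56 against 0, at least 18.3-fold). The within-day block called all 4, with adjusted p-values of 0.00184 and 0.00417 at day 3 and 0.000828 and 0.00102 at day 8. None of the 50-base stretches of Dazl transcripts occurs in another gene.

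Taf7l, a germ cell paralog of a TFIID subunit, had the same separation at a lower level. It stood at 2.14 and 0.475 CPM in Tet1CD Vc cells of day 3 and 1.78 and 1.67 CPM in those of day 8, above all 20 other reprogramming libraries, which held at most 0.196 CPM. By counts that is at least 4.63-fold above Flag Vc cells at day 3, and 19 counts against 1 at day 8 (ratio 15.8, 2.52 to 658). No test called it (edgeR adjusted p = 0.445 and 0.504). Sohlh2, a helix-loop-helix factor of early germ cells, stood at 1.07 and 1.12 CPM in Tet1CD Vc cells of day 8 and at 0.776 CPM or less in other reprogramming libraries, 12 counts against 0 in Flag Vc cells of that day (at least 3.34-fold, adjusted p = 0.468). Brdt, a bromodomain protein of spermatocytes, was between 0.407 and 3.11 CPM in reprogramming cells with overlapping groups, and Tex14, which keeps germ cell bridges open, reached at most 1.30 CPM.

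Among the other germ cell proteins the alpha-tubulin genes Tuba3a and Tuba3b had different patterns. Tuba3b stood at 3.11 and 1.66 CPM in Tet1CD Vc cells of day 3 and 3.02 and 6.50 CPM in those of day 8. It was at 1.22 and 1.42 CPM in Tet1CD DKG cells of day 8, 0.280 and 0.252 CPM in Tet1CD DMSO cells of day 8, and 0 in 15 of the 16 remaining reprogramming libraries, the exception being 0.203 CPM. In ESC it stood at 0 and 0.992 CPM. Tuba3a was at 0.889 CPM in 1 library of Tet1CD Vc cells of day 8, at most 0.145 CPM in all other reprogramming libraries, and at 19.6 and 39.3 CPM in ESC. Each shares 473 of its 50-base stretches with the other or with Tuba8 (32.4% of those of Tuba3a and 27.4% of those of Tuba3b), which the counting had to divide between these genes, so the values are uncertain. The within-day block called Tuba3b with Tet1CD in Vc at day 3 (6.66 ± 1.32, adjusted p = 0.00531) and day 8 (7.56 ± 1.19, 0.00195) and with Vc in Tet1CD cells (6.61 ± 1.36, 0.0213, and 3.90 ± 0.73, 0.00852). The test with no block called none of these (adjusted p = 0.251, 0.144, 0.631 and 0.351). By counts Tuba3b was at least 8.19-fold higher in Tet1CD Vc than in Flag Vc cells at day 3 (23 counts against 0). At day 8 it was at least 14.5-fold higher (52 against 0). Against Tet1CD DMSO cells it was at least 7.51-fold higher at day 3 and 17.5-fold at day 8 (52 counts against 3, 5.66 to 87.6). Dpep3, a testis dipeptidase, stood at 1.78 and 1.12 CPM in Tet1CD Vc cells of day 8, 16 counts against 0 in Flag Vc cells (at least 4.45-fold), and at 0.237 CPM or less in every other reprogramming library. Slc25a31, an ATP carrier of sperm, and Tex101 stayed under 1 CPM.

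Counted over the list, the calls were few. In the test with no block, Tet1CD against Flag in Vc at day 3 called 2 members, Piwil2 and Tex19.1, of 25 tested (all genes 0.483%), and at day 8 it called 1, Dazl (0.235%). Vc against DMSO in Tet1CD cells called the same 2 at day 3 (0.261%) and Dazl at day 8 (0.174%). From day 3 to day 8, 1 member, Piwil2, was called in Flag Vc cells (1.26%) and 0 in Tet1CD Vc cells (0.161%; 3 with an unadjusted p under 0.05, and DESeq2 called 0). The Tet1CD Vc libraries enter both kinds of comparison, so these calls are not independent of each other. Both day 3 calls of Tet1CD against Flag ended without either Flag Vc library or without Tet1CD Vc 0824, and both of Vc against DMSO ended without either Tet1CD DMSO library or without Tet1CD Vc 0824. The Dazl call at day 8 ended without Tet1CD Vc 0824 in both comparisons, without Flag Vc 0826 in the first, and without either Tet1CD DMSO library in the second. The Piwil2 call over time in Flag Vc cells ended without either library of day 3 or without Flag Vc 0824 of day 8. Each such fit leaves an arm of 1 library, which is assumed to vary like the other groups.

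Over the tested members the median log2 fold change of Tet1CD against Flag in Vc was 1.85 at day 3 and 1.29 at day 8, against -0.000761 and -0.00889 over all genes. With groups at 0 counts set at their bound, and members at 3 counts or fewer in both groups left out, it was 1.10 over 15 members and 1.16 over 21. For Vc against DMSO in Tet1CD cells the median was 0.828 at day 3 and 1.80 at day 8, against -0.0124 and 0.00348 over all genes, and with the bounds 1.78 over 15 members and 1.19 over 21. Members near 0 in the reference group could enter the bounded medians only by being higher in Tet1CD Vc cells, so their sign is partly set by this choice and they support nothing. The medians without bounds include folds against 0 counts and members that passed the filter through the Tet1CD Vc libraries, such as Tuba3b. They support nothing either.

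With the within-day block, 6 of the 11 members tested were called for Tet1CD against Flag in Vc at day 3, Piwil2, Tex19.1, Dazl, Tuba3b, Rec8 and Mov10l1, where 16.6% of all genes were, and 5 at day 8, the same without Rec8 (12.6%). Vc against DMSO in Tet1CD cells called 5 at day 3 (2.86%) and 5 at day 8 (6.6%), all higher with Vc. The 11 are those that passed the low-count filter in these 24 libraries, so the counts describe the tested members only. Outside the Tet1CD Vc libraries, Dazl, Mov10l1 and Tuba3b held at most 0.305, 1.22 and 1.42 CPM in reprogramming cells. They passed the filter through the group in which they are high. The number tested and the number called are thus partly set by the filter, and setting them beside the share of all genes supports nothing. Piwil2 was the only member called for Tet1CD against Flag in DKG at day 3 (0.471%), in DMSO at day 8 (4.46%) and in DKG at day 8 (2.47%), for Vc in Flag cells at day 8 (2.02%) and over time in Tet1CD Vc cells (19.3%). Over time in Flag Vc cells Piwil2 and Tdrd1 were called (29.4%). In the last 2 comparisons the share of called genes is high for all genes, and a single member or a pair among 11 is no more than that share.

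Without Vc, the test with no block called 0 members for Tet1CD against Flag. In DMSO it called 0.00671% of all genes at day 3 (1 member at an unadjusted p under 0.05; 0 by DESeq2) and 0.0469% at day 8 (4 members unadjusted; 0 by DESeq2). In DKG it called 0.00671% at day 3 (1 member unadjusted; 0 by DESeq2) and 0.0335% at day 8 (5 members unadjusted; 1 by DESeq2, Piwil2, adjusted p = 0.000659). All of these members were higher in Tet1CD cells. DKG against DMSO in Tet1CD cells called 0 members and 0% of all genes on both days (0 members unadjusted; 0 by DESeq2). Vc against DMSO in Flag cells also called 0 members and 0% of all genes on both days, with 1 member unadjusted at day 3 and 3 at day 8 (Piwil2, Tdrd12 and Ddx4, all higher with Vc) and, by DESeq2, 0 at day 3 and Piwil2 at day 8 (adjusted p = 0.0365).

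Whether the Vc difference was larger in Tet1CD cells than in Flag cells was tested as an interaction, which called 0 members at day 3 (0.101% of all genes) and 0 at day 8 (0.0201%), with 1 member at an unadjusted p under 0.05 on each day (Taf7l at day 3, and Ddx4 in the other direction at day 8) and 0 by DESeq2. For Dazl, Mov10l1 and Tuba3b this test gives no information, since the groups with 0 counts leave its error without bound, and the same holds for Taf7l at day 8, while for Tex19.1 at day 3 the error was 32.7 around 4.25. For Piwil2 the interaction was 0.93 ± 1.5 at day 3 and -0.74 ± 0.76 at day 8 on the log2 scale, and for Tex19.1 0.94 ± 1.85 at day 8. In levels, 4 of the 25 tested members, Tex19.1, Dazl, Taf7l and Tuba3b, had all 4 Tet1CD Vc libraries above all 20 other reprogramming libraries. So had 0.811% of all genes tested. Tuba3b held at most 1.42 CPM in those 20 libraries and 0 and 0.992 CPM in ESC. It therefore passed the low-count filter through the Tet1CD Vc libraries. Taf7l held at most 0.196 CPM in those 20 libraries and 4.85 and 0.992 CPM in ESC. It passed through ESC 0819 together with the Tet1CD Vc libraries, and the count of 4 is a description.

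Few other genes of these pathways changed. Of 36 further piRNA and meiosis genes in the tables, 14 were tested and 0 were called for Tet1CD against Flag in Vc or Vc against DMSO in Tet1CD cells on either day (1 to 3 at an unadjusted p under 0.05). With the within-day block, of 12 tested, Tdrd7, a tudor protein, rose (0.82 ± 0.21, adjusted p = 0.0109) and Psmc3ip, a recombination cofactor, fell by 0.86 on the log2 scale (0.0237) for Tet1CD against Flag in Vc at day 3. These 2 of 12 are about the share of all genes, 16.6%. At day 8 Tdrd7, Mnd1 and Syce2, a central element protein of the synaptonemal complex, rose in this comparison, 3 of 12 beside 12.6% of all genes. Stra8, the retinoic acid target that opens meiosis, stood at 0.624 CPM or less in every library outside ESC, where it was at 70.1 and 4.76 CPM. Stra8 was singled out after its values were seen.

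The factors known to keep germline genes off were measured as a list of 25 genes, all tested. None was called for Tet1CD against Flag in Vc or for Vc against DMSO in Tet1CD cells without the block. With the within-day block 5 of 25 fell for Tet1CD against Flag in Vc at day 3, where 16.6% of all genes were called (1483 higher and 843 lower), and at day 8 3 rose and 1 fell, beside 12.6% of all genes. Counted in either direction, both numbers are near the share of all genes. The genes named below are examples, and the other called genes are not listed. Among the 5 were Uhrf1, which brings the maintenance methyltransferase to DNA (-0.53 ± 0.11, adjusted p = 0.00295), Dnmt1, that methyltransferase (-0.31 ± 0.10, 0.0392), and Trim28, a corepressor (-0.43 ± 0.08, 0.00166). Uhrf1 stood at 137 and 116 CPM in Tet1CD Vc cells of day 3 against 187 and 183 CPM in Flag Vc cells. At day 8 the direction was the other one for Uhrf1 (0.48 ± 0.11, adjusted p = 0.00894), at 185 and 159 against 129 and 120 CPM, and the de novo methyltransferase gene Dnmt3b also rose (1.43 ± 0.27, 0.0019). E2f6, Mga, Pcgf6 and Setdb1, parts of complexes that silence germline genes, were called in none of these 4 comparisons with or without the block. E2f6 held 47.0 to 90.3 CPM and Mga 119 to 194 CPM over the reprogramming libraries. That does not show them unchanged. At day 3 Mga, Pcgf6 and Setdb1 were lower in both Tet1CD Vc libraries than in either Flag Vc library, and E2f6 was higher in both. Pcgf6 stood at 29.1 and 29.9 against 42.6 and 34.2 CPM, and E2f6 at 73.2 and 73.1 against 72.6 and 65.0 CPM. The share of all genes with no overlap between these groups was not counted, so this order is a description only. The part of these genes in the levels of the germline members was not tested.

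The levels of other cell type markers are given beside those of the germline members. At day 3 the 7 pluripotent cell markers summed to 1.90 to 10.9 CPM in Tet1CD Vc cells and 3.98 to 16.4 CPM in Flag Vc cells, while the germline members summed to 45.8 to 79.8 and 12.8 to 17.6 CPM. At day 8 the markers summed to 249 CPM in Tet1CD Vc 0824 against 193 CPM in Flag Vc 0824, and to 102 against 38.3 CPM in the libraries numbered 0826, so they were higher with Tet1CD in both pairs. Over these pairs the germline members summed to 86.9 against 37.0 CPM and to 100.7 against 30.2 CPM. The primordial germ cell markers summed to 23.4 to 37.7 CPM in Tet1CD Vc cells and 32.1 to 53.1 CPM in Flag Vc cells of day 8. Of the 8 late spermatocyte and spermatid markers, none reached 1 CPM in both libraries of any group, and Prm2, Tnp1 and Pgk2 had 0 counts in every reprogramming library. The 6 trophoblast markers summed to 11.4 CPM or less in all reprogramming libraries, with Tpbpa at 0. The part of other cell types in the germline values was not tested.

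**Figure D4:**
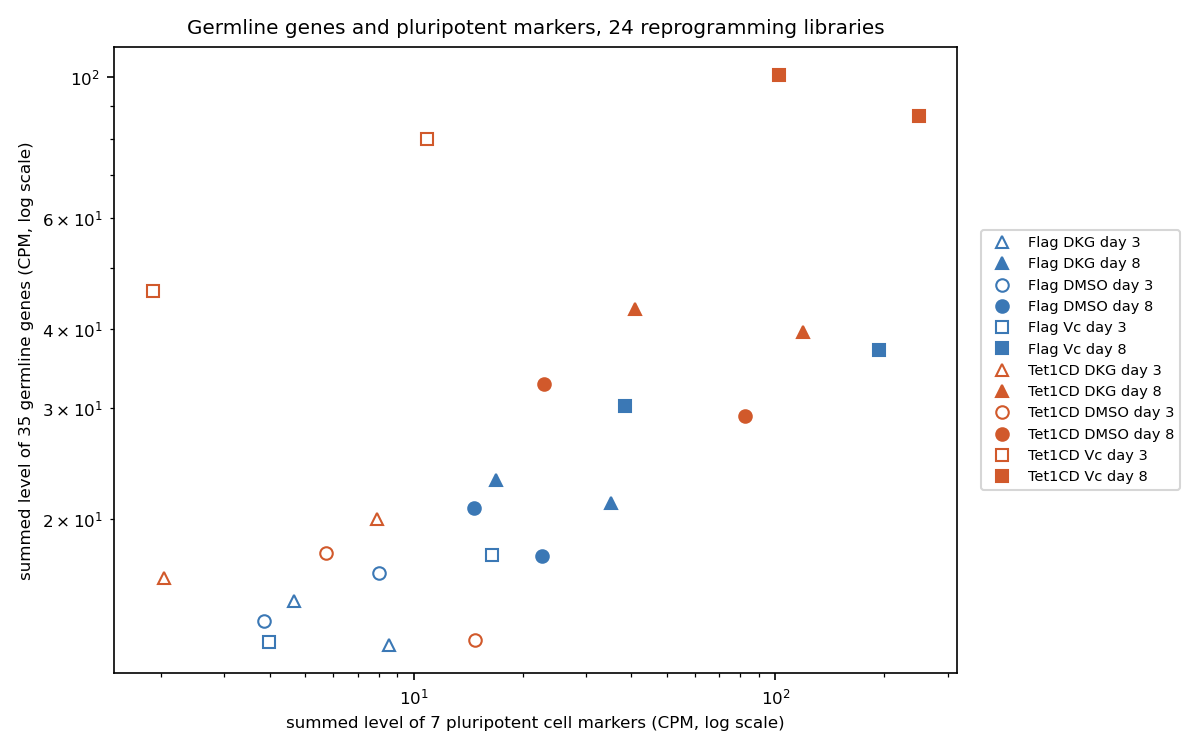
Summed CPM of the 35 germline genes (vertical, log scale) against that of 7 pluripotent cell markers (horizontal, log scale) in the 24 reprogramming libraries; colour gives the virus, shape the medium, and open symbols are day 3. The 4 Tet1CD Vc libraries are the highest on the vertical axis, at 45.8 to 100.7 CPM, and span 1.90 to 249 CPM on the horizontal axis.

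In ESC the list looked different. Against MEF, 21 of the 25 tested members were called, all higher in ESC, where 52.4% of all genes were called, and the median over the tested members was 7.01 on the log2 scale (4.15 with groups at 0 counts at their bound) against 0 over all genes. Since most of these members passed the filter through the ESC libraries, the count and the medians are a description. DESeq2 called 12 (Rec8, Tex15, Tex14, Dazl, Ddx4, Syce1, Sohlh2, Tdrd12, Piwil2, Stag3, Tex19.1 and Fkbp6), and leaving out a library gave 15 to 22, with 22 called without ESC 0822, the library with fibroblast markers. In 21 of the 35 members both ESC libraries were above every other library. By length-normalised level (TPM) the order of the members differed between the ESC libraries. ESC 0819 was led by Sohlh2 at 74.7, Rec8 at 66.9, Tdrd12 at 43.1 and Tex19.1 at 39.5 TPM, and ESC 0822 by Tdrd12 at 77.8, Tuba3a at 52.8, Tex19.1 at 32.5 and Fkbp6 at 25.2 TPM. In Tet1CD Vc cells of day 8 both libraries were led by Tex19.1, at 15.6 and 17.6 TPM, Piwil2, at 9.67 and 13.6 TPM, and Rec8, at 9.11 and 7.49 TPM. The ESC libraries differed for several members: Sohlh2 stood at 94.4 CPM in 0819 and 23.2 in 0822, Tex14 at 65.8 and 8.53, Rec8 at 67.0 and 12.5, and Dazl at 12.8 and 30.4.

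Set against Tet1CD Vc cells of day 8, ESC was higher in 14 members and lower in 2, with 35.4% of all genes called. Most tested members passed the filter through the ESC libraries, and Tuba3b through the Tet1CD Vc libraries. The number called is therefore a description. The 14 were led by Sohlh2 (log2 fold change 5.72 ± 1.00, edgeR adjusted p = 0.000863), Tuba3a (5.96 ± 1.15, 0.00724), Hormad1 (5.38 ± 1.23, 0.00898), Tdrd12 (5.32 ± 0.82, 0.000286) and Tex14 (5.06 ± 0.95, 0.000854). In Tet1CD Vc cells of day 8 none of Tdrd12, Sohlh2, Tex14, Tuba3a, Mael and Hormad1 passed 2.13 CPM, and each ESC library held 3.11 CPM or more of every one of them. Tex19.1, at 13.2 and 15.2 CPM against 35.3 and 28.2 in ESC 0819 and 0822, was not called, nor was Dazl, at 8.35 and 7.81 against 12.8 and 30.4. Taf7l, at 1.78 and 1.67 CPM, lay between the ESC libraries, at 4.85 and 0.992, and was not called. The 2 lower members were Piwil2, at 7.96 and 7.74 CPM in ESC against 23.6 and 34.0 (-1.87 ± 0.52, adjusted p = 0.0104), and Tuba3b (-3.21 ± 1.06, 0.0394, 5 counts in ESC against 52). Mov10l1, at 5.51 and 2.42 CPM against 2.14 and 1.59 in ESC, was not called. Without ESC 0819, without Tet1CD Vc 0824, without Tet1CD Vc 0826 and by DESeq2 the number of members called fell to 10, 9, 8 and 9, and without ESC 0822 it was 16.

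**Figure D5:**
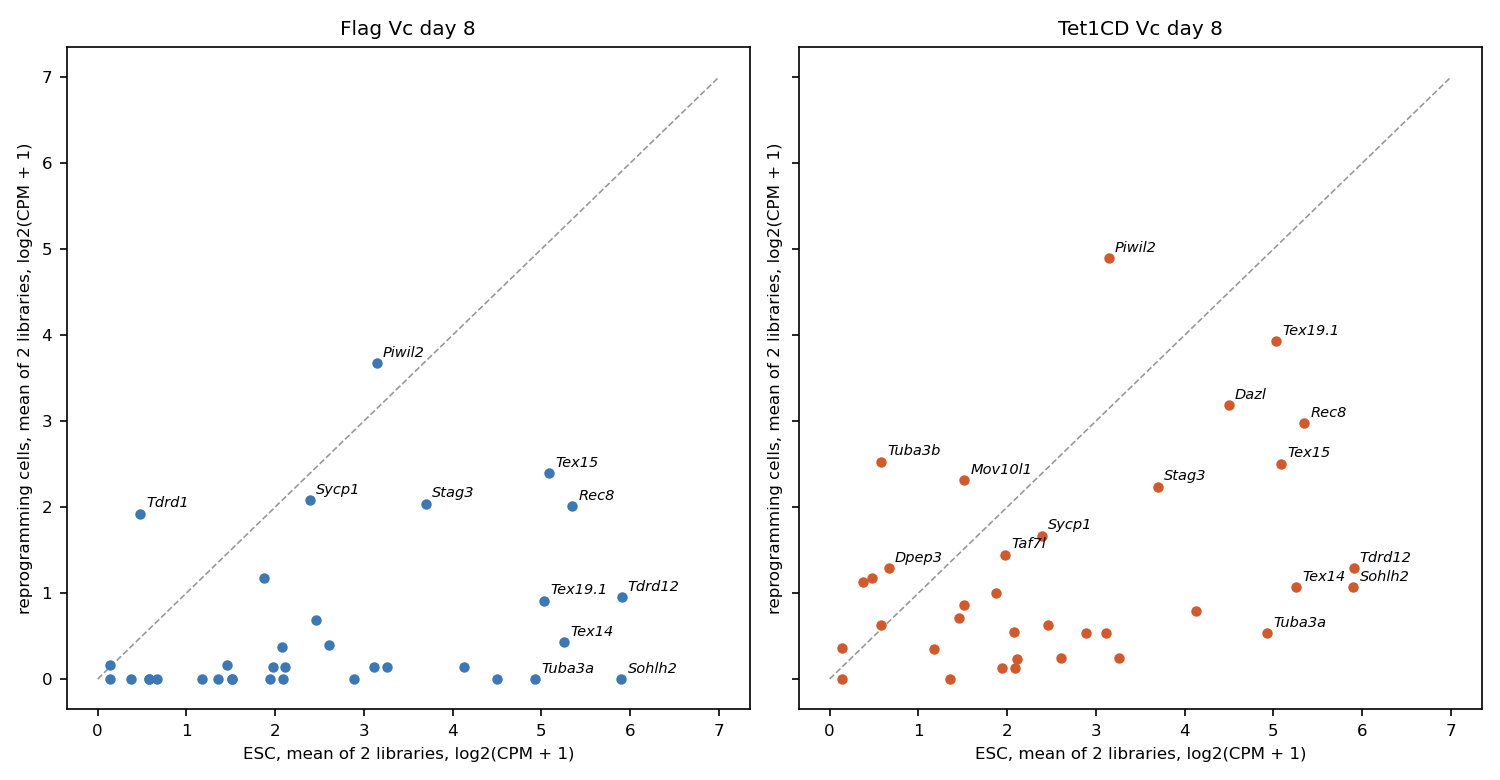
Mean level of each germline gene in Flag Vc cells (left, blue) and Tet1CD Vc cells (right, orange) of day 8 against its mean in ESC, both as log2(CPM + 1) of 2 libraries, with the line of equality dashed. Piwil2 and Tdrd1 lie above the line in both panels, and Tuba3b, Mov10l1, Asz1, Sycp2, Dpep3 and, slightly, Slc25a31 on the right. On the right Tex19.1 and Dazl lie nearer below it than Rec8 and Tex15, and Tdrd12, Sohlh2, Tex14 and Tuba3a lie near the bottom in both panels.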

How the data were processed

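RNA from 31 libraries (Trizol, Illumina TruSeq kit, per the labels' protocols) was measured by sequencing. The authors aligned and counted reads with Bowtie and RSEM on mm10, per the submitters' processing notes; their versions, the strand setting and the annotation are not given in the sources read here. The deposited tables hold an expected count per gene, rounded here to whole numbers, and TPM, used only to compare levels between genes. Gene symbols were matched through GENCODE M21. The members and lists were chosen with earlier results of these data known. Members called in a comparison of Tet1CD with Flag or of Vc with DMSO are given by library, and the others mostly by range and count.

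CPM used TMM library sizes. Comparisons used edgeR 4.0.16 (quasi-likelihood, TMM, filterByExpr, 28 libraries in 14 groups, no block; limma 3.58.1, R 4.3.3) with Benjamini-Hochberg adjustment within a comparison and a threshold of 0.05; a member past it is called. The pipeline was tested on simulated data. Same-numbered libraries deviated together within a day (correlations 0.356 to 0.504 over 15 pairs of groups at day 3, 0.345 to 0.687 over 15 at day 8) and not across days (-0.00838 to 0.178, 36 pairs), so the within-day block is given beside the results it changes; it was planned because an earlier analysis of these data had found this pattern. Alternatives were DESeq2 1.42.0, its size factors in edgeR, no low-count filter, 1 replicate block over 26 libraries, the within-day block, and leaving out each library. Counting intervals are 95%, and intervals and floors cover counting error only.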

Additional observations from a re-analysis of the deposited data

How the results depend on the processing

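Of the differences of Piwil2, Tex19.1, Dazl, Mov10l1, Tuba3b and Rec8 called for Tet1CD against Flag or Vc against DMSO, with no block or with the within-day block, 25 in all, none changed direction under an alternative that gave a value. With the within-day block the number of members called was 6 and 5 for Tet1CD against Flag in Vc at day 3 and day 8 (2 and 1 without), 5 and 5 for Vc against DMSO in Tet1CD cells (2 and 1), 2 over time in Flag Vc cells (1), and 1, where there had been 0, for Tet1CD against Flag in DKG at day 3, in DMSO at day 8 and in DKG at day 8, for Vc in Flag cells at day 8 and over time in Tet1CD Vc cells. With 1 replicate block over both days it was 4 and 3 for Tet1CD against Flag in Vc and 1 in DKG at day 8. Of all 14368 genes tested with that block, 459, 316 and 49 were called in these comparisons, against 72, 35 and 5 of 14914 with no block. The blocks changed no other number of members called beyond 1.5 times. DESeq2 called 12 for ESC against MEF, 9 for ESC against Tet1CD Vc cells, 2 for Tet1CD against Flag in Vc and 1 in DKG at day 8, 3 for Vc in Tet1CD cells at day 8 and 1 in Flag cells at day 8. With no low-count filter 2 were called for Tet1CD against Flag in Vc, 1 in DKG and 2 for Vc in Tet1CD cells, all at day 8. Leaving out 1 library gave 0 to 1 members for Flag DMSO cells against MEF, 0 to 2 for Tet1CD against Flag in Vc at day 3 and 0 to 1 at day 8, 0 to 2 and 0 to 1 for Vc in Tet1CD cells, 0 to 1 over time in Flag Vc cells, 15 to 22 for ESC against MEF and 8 to 16 for ESC against Tet1CD Vc cells. Apart from the smaller number of libraries or of genes tested, the cause was not tested. For DESeq2, the fit with no filter and the fits with a library left out, the share of all genes called was not counted. A change in those numbers cannot be told from a change in calls over all genes. The common dispersion was 0.0817 with no block, 0.0312 with 1 block and 0.00871 with the within-day block. With 2 libraries in a group and totals of 3953297 to 6818060 counts, levels under 1 CPM rest on a few counts.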
